A study of Mus musculus with 16 samples.

Results

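Motile cilia are the beating hair-like projections that move cerebrospinal fluid over the ependyma, the single cell layer that lines the ventricles of the brain. Foxj1 and the RFX transcription factors switch on the genes of the motile cilium, which is built from outer and inner dynein arms, radial spokes, nexin links and a central pair of microtubules. Excitatory cortical neurons carry a primary cilium that lacks most of these parts. The 43 genes described here were chosen by name as genes of motile cilia and ependymal cells, and they were read in every library of the deposited table. Of the 43 names, 32 were found directly and 9 dynein heavy chains under their older symbols at the same locus, which left 41 genes of 23284 in the table. Dnah3 and Dnah12 were not analysed here.

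RNA from freshly dissected prefrontal cortex was sequenced as 16 libraries, 4 from each of 4 genotypes of mice of both sexes that were 2-3 months old. APC cKO mice carried floxed APC alleles (APC fl/fl). Bcat cOE mice carried one ctnnb1 allele with a floxed exon 3 (ctnnb1 fl(ex3)/+), whose deletion leaves a stabilised β-catenin. APC/Bcat cKO mice carried floxed alleles of both genes (APC fl/fl and ctnnb1 fl/fl). Recombination in all 3 lines was driven by CamKIIα-Cre, which acts mainly in excitatory neurons of the forebrain, and controls were Cre-negative littermates pooled from all of the lines. The design asked which genes changed with raised β-catenin, in APC cKOs and Bcat cOEs, and not in APC/Bcat cKOs. Replicate numbers below are names in the order of deposition.

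Apc was at 43.9 ± 4.21 FPKM (SD, n = 4; fragments scaled by transcript length and by library) in controls and 44.5 ± 5.11 FPKM in Bcat cOEs, against 11.7 ± 3.88 FPKM in APC cKOs and 10.05 ± 2.30 FPKM in APC/Bcat cKOs. Ctnnb1 RNA was between 151 and 182 FPKM in all 16 libraries. Raised β-catenin here means protein. Immunoblots of prefrontal cortex in the study gave higher β-catenin protein in APC cKOs and Bcat cOEs and much lower in APC/Bcat cKOs. An RNA level for the whole gene does not show this. By the levels of sex-linked genes, control replicate 1 and APC cKO replicate 1 were female and 14 libraries male. The depth of the libraries is unknown, and between 5726 and 6649 genes were listed at 0 in a library. The labels do not say whether replicates were separate mice, so p-values measure the spread between these samples only.

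The listed genes were mostly low. Their median mean level over the 16 libraries was 0.653 FPKM, against 10.01 FPKM over the 13978 genes tested, those that averaged 0.5 FPKM or more. A mean above 1 FPKM was reached by 16 of the 41 genes and a mean above 5 FPKM by 3, namely Rsph9 (14.8 FPKM), Rfx3 (9.43 FPKM) and Lrrc6 (6.32 FPKM). The test took in 25 of the 41 genes, and 16 fell under its minimum. The low levels followed the parts of the cilium. None of the 3 outer arm dynein heavy chains was tested (means from 0.174 to 0.333 FPKM), 1 of 6 inner arm heavy chains was, and so was 1 of 5 central pair genes, while 5 of 6 genes of radial spokes and nexin links and all 4 smaller dynein chains passed. FPKM is scaled by transcript length. Whether length or uneven coverage along a transcript still shaped these levels was not tested. Dnah7a and Dnah7b are close copies, and how their reads were shared is uncertain.

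The promoters of the listed genes were read because RFX factors bind a known sequence, the X-box, made of 2 inverted arms, and because both Rfx2 and Rfx3 are among the genes measured. RefSeq windows (build GRCm38.p6) from 250 bases before to 50 after the start site were at hand for 36 of the 41 genes, in 39 windows. Efhb, Foxj1, Lrrc6, Rsph1 and Rsph4a had none. One form of an arm, the hexamer GTTGCC, on either strand, was in 21 of 39 windows (53.8%), against 12.5% of all 32851 windows. By gene it was in 20 of 36 (55.6%), against 14.1% of 27025 genes with a window. Windows of one gene can overlap, and counted once each there were 27 hexamers in these windows. Of the 27, 21 began before the nearest start site (77.8%, against 83.7% of the matches in all windows) and 14 began within 100 bases before it (51.9%, against 37.5%). These are matches of letters and not sites shown to be bound.

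**Figure D1:**
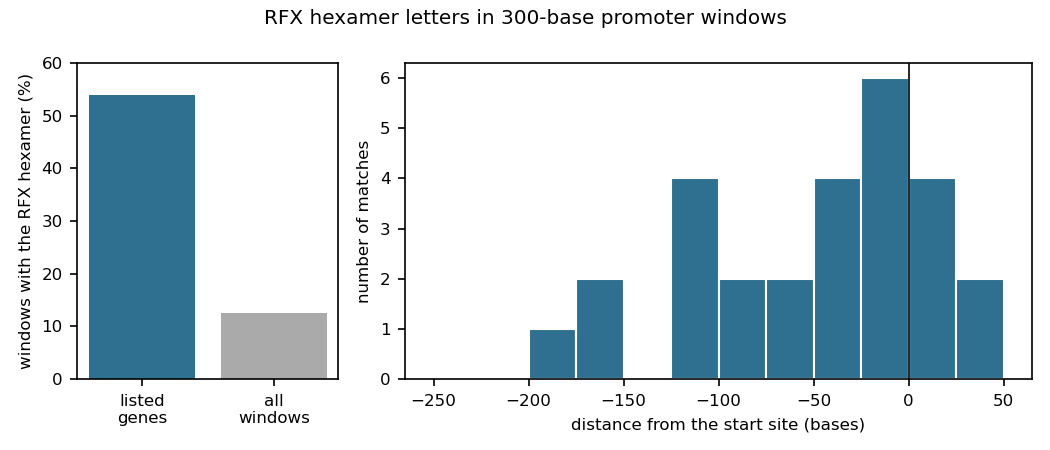
Left, percentage of promoter windows that hold the RFX hexamer among the 39 windows of the listed genes (53.8%) and among all 32851 windows (12.5%). Right, number of hexamers in the windows of the listed genes by the distance of their first base from the nearest start site, in bins of 25 bases, each hexamer counted once. Of 27, 21 lie before the start, a side that holds 84.7% of the positions in a window, and 14 lie in the last 100 bases before it.

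The 6 stretches printed here end at or before the RefSeq start site of their window and show how the hexamers are arranged. They belong to Dynlrb2, a light chain of dynein, Lrrc23, a radial spoke protein, Spag16, of the central pair, Tekt1, a tektin of the microtubule doublet, Enkur, a protein of the doublet lumen, and Mns1, another lumen protein and the listed gene that differed most clearly between genotypes below. They lie at chr8:116504924-116505009 (plus strand), chr6:124779839-124779924 (minus), chr1:69826827-69826912 (plus), chr11:72361883-72361937 (minus), chr2:21205366-21205439 (minus) and chr9:72438417-72438502 (plus), and capitals mark hexamers in either orientation.
Dynlrb2: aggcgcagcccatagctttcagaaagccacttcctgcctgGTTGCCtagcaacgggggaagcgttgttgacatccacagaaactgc
Lrrc23: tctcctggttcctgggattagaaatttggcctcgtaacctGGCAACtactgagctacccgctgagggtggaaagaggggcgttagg
Spag16: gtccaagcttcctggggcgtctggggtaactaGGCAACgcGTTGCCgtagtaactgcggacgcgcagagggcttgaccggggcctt
Tekt1: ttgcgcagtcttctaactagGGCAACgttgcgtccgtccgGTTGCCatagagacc
Enkur: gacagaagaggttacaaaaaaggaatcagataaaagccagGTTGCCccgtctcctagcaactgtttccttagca
Mns1: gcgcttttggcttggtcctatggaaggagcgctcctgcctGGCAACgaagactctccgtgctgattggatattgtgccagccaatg

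In Spag16 and Tekt1 a pair of hexamers in opposite orientations stood in the stretch shown. Mns1 held one hexamer beginning 72 bases before its RefSeq start and another beginning 15 bases after it. Another annotation, GENCODE M21, starts Mns1 (chr9:72438011) and Tekt1 (chr11:72362442) further upstream, so their stretches lie inside the gene there. It starts Dynlrb2 at chr8:116504974, within the stretch. A complete X-box was rarer and depended on how strictly it was spelled. The spelling GTTNCC, then 1, 2 or 3 bases, then GGNAAC, in which the hexamer is one form of an arm, matched 0 of the 36 listed genes and 0.903% of all genes. The looser X-box consensus, with 0 to 3 bases between the arms and added after the windows were read, matched 3 of 36 (Dynlrb2, Lrrc23 and Spag16, or 8.33%), against 1.10% of all genes. A forkhead motif, GTAAACA, was in 1 of 36 windows by gene (Ak7, 2.78%), against 4.05% of all genes.

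The levels differed widely between libraries of one genotype. Of the 41 genes 28 were highest in APC cKO replicate 3, and 3 each in APC cKO replicate 1, APC cKO replicate 4 and Bcat cOE replicate 4. APC cKO replicate 3 was also the library with the fewest genes at 0 in the whole table (5726). The share of all genes that were highest in each library was not counted. Over the 25 tested genes, the mean of log2(FPKM + 0.1) above each gene's median was 1.38 in APC cKO replicate 3, 0.92 in Bcat cOE replicate 4, 0.89 in APC cKO replicate 1, 0.73 in APC/Bcat cKO replicate 2, 0.35 in APC cKO replicate 4 and 0.27 in Bcat cOE replicate 1. It was below 0 in the other 10 libraries, the 4 controls included. Each mutant genotype held both high and low libraries, while no control was high. The FPKM of the 41 genes summed to 55.3-63.3 in controls, 59.3-125 in APC cKOs, 60.1-99.2 in Bcat cOEs and 60.8-85.0 in APC/Bcat cKOs, so the low end was alike in the 4 genotypes.

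**Figure D2:**
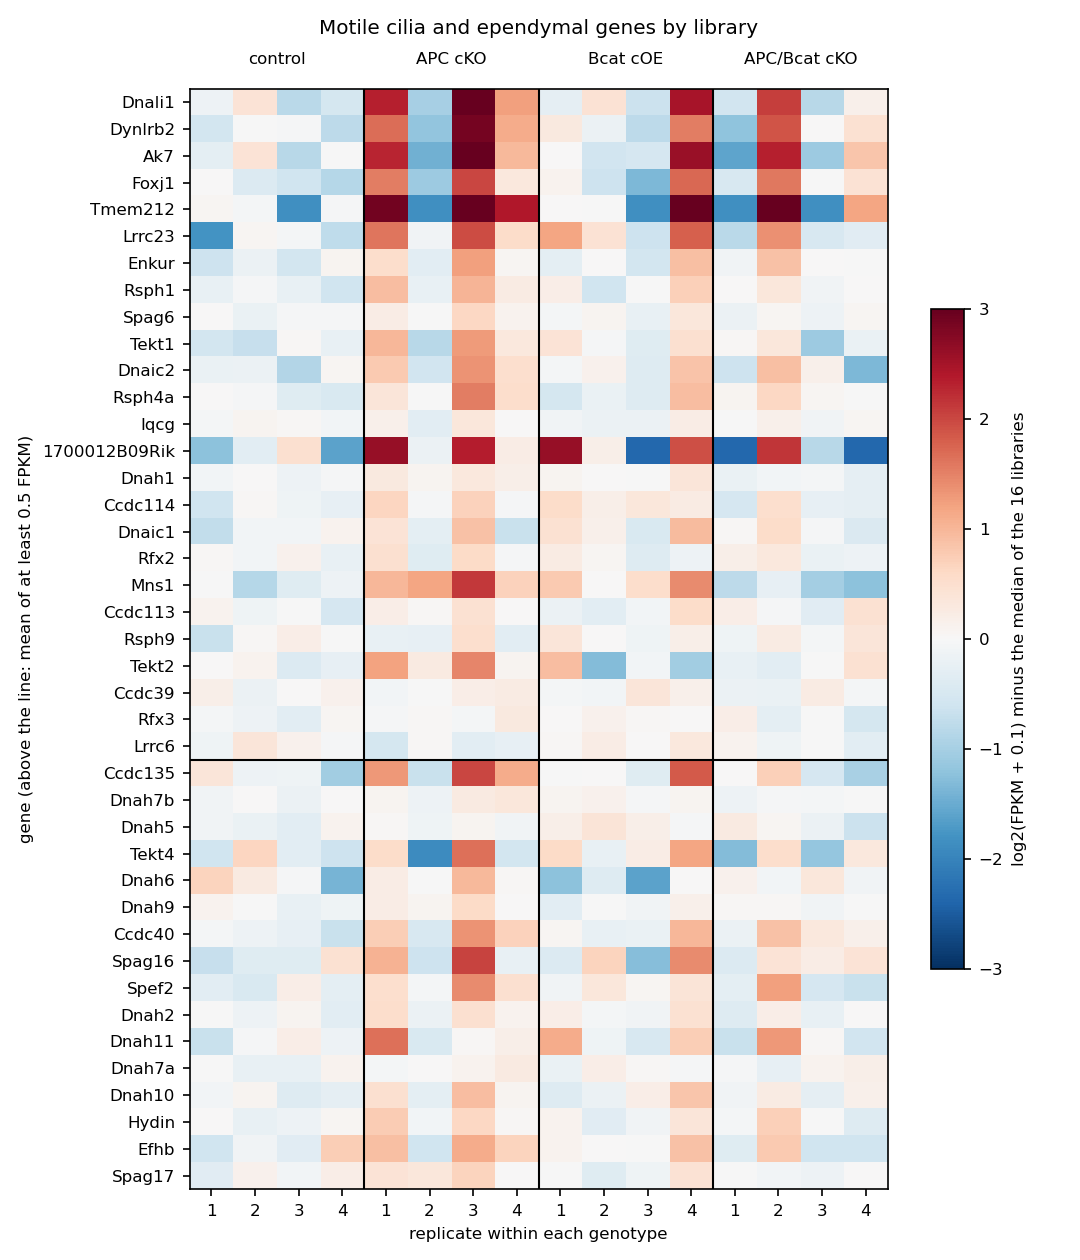
Each column is a library, grouped by genotype and ordered by replicate, and each row a listed gene, with the 25 tested genes above the line in order of their correlation with the others. Colour gives log2(FPKM + 0.1) minus the gene's median over the 16 libraries, cut off at 3 either way; APC cKO replicate 3, APC cKO replicate 1, Bcat cOE replicate 4 and APC/Bcat cKO replicate 2 are red for most of the upper rows, and the rows of Ccdc39, Rfx3 and Lrrc6 are pale throughout.

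The spread was measured within genotypes. On the log2(FPKM + 0.1) scale, the standard deviation within genotypes had a median of 0.51 over the 25 genes, against 0.15 over all genes tested and 0.25 over the 4574 genes tested with a mean from 0.5 to 5 FPKM. It was above 0.5 in 13 of 25 (52%), against 4.87% and 11.8%. Of these genes Ak7, Dnali1 and Dnaic2 reached the minimum of 0.5 FPKM through APC cKOs alone, and without them, a choice made after seeing the data, the count was 10 of 22. Over all 41 genes, with no minimum, the median was 0.51 and 21 were above 0.5 (51.2%), against 10.5% of all 19443 genes with a value above 0 and 21.9% of the 6571 with a mean from 0.1 to 5 FPKM. Tmem212 (2.18), 1700012B09Rik (1.76), Ak7 (1.61), Dnali1 (1.35), Dynlrb2 (1.19) and Foxj1 (1.07) spread most.

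The genes also varied together. Over the 16 libraries, 13 of 25 had a Pearson correlation above 0.8 with the mean of the other 24, and 20 had one above 0.5. The 13 include Ak7, Dnali1 and Dnaic2, which reached the minimum through APC cKOs alone. The counts were not redone without them, and they are part of the mean of the 25 genes used below. After genotype means were subtracted the counts were 9 and 20. Dnali1 (0.95), Dynlrb2 (0.94), Ak7 (0.93) and Foxj1 (0.90) followed the others most closely. The 5 genes at or below 0.5 were Rsph9 (0.42), Tekt2 (0.33), Ccdc39 (-0.01), Rfx3 (-0.09) and Lrrc6 (-0.39), and these include the 3 of highest level. The points share libraries and dissections, and the correlations are given as a description.

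Of the transcription factors, Foxj1, the master regulator of motile ciliogenesis, followed the other genes most closely. Foxj1 was at 1.11, 0.796, 0.69 and 0.559 FPKM in controls, 3.38, 0.459, 4.69 and 1.4 in APC cKOs, 1.18, 0.674, 0.373 and 3.82 in Bcat cOEs and 0.764, 3.48, 1.08 and 1.53 in APC/Bcat cKOs. APC cKO replicates 1 and 3, Bcat cOE replicate 4 and APC/Bcat cKO replicate 2 were above 3 FPKM, all controls were below 1.2, and every mutant genotype overlapped the controls. Its log2 change against controls came to 1.16 in APC cKOs (limma, standard error 0.67, adjusted p = 0.581), 0.42 in Bcat cOEs (0.67, adjusted p = 0.971) and 0.85 in APC/Bcat cKOs (0.67, adjusted p = 0.571). Each of these rested on few libraries. Without Bcat cOE replicate 4 the change in Bcat cOEs was -0.16, and without Bcat cOE replicate 3 it was 0.86. In APC/Bcat cKOs it was 0.45 without replicate 2, and in APC cKOs 0.72 without replicate 3 and 1.75 without replicate 2.

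Rfx2 and Rfx3, which bind the X-box, spread less than Foxj1 (standard deviations within genotypes of 0.30 and 0.20, against 1.07). Rfx2 still followed the other genes, with a correlation of 0.65, and Rfx3 did not (-0.09). Rfx2 was at 0.648, 0.582, 0.697 and 0.521 FPKM in controls, 0.909, 0.463, 0.978 and 0.607 in APC cKOs, 0.758, 0.655, 0.452 and 0.55 in Bcat cOEs and 0.726, 0.81, 0.534 and 0.56 in APC/Bcat cKOs. All 16 values lay within 0.452 and 0.978 FPKM, and the highest was again APC cKO replicate 3. Rfx3 was at 9.29, 8.68, 7.72 and 10.1 FPKM in controls, 9.36, 9.91, 9.18 and 11.7 in APC cKOs, 9.63, 10.6, 9.88 and 9.66 in Bcat cOEs and 11.1, 7.81, 9.61 and 6.62 in APC/Bcat cKOs. Rfx3 was the least variable of the transcription factors and its 4 groups overlapped, with log2 changes against controls of 0.17, 0.16 and -0.05 (standard error 0.13) in APC cKOs, Bcat cOEs and APC/Bcat cKOs. Rfx3 is also known outside motile cilia, in cells with a primary cilium.

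The dynein arms drive the beat. Of the smaller chains, Dnali1, an inner arm light chain, and Dynlrb2 are described because they followed the other genes most closely, a choice made after their values were seen. Dnali1 was at 0.161, 0.287, 0.0641 and 0.101 FPKM in controls, 1.35, 0.0446, 2.6 and 0.575 in APC cKOs, 0.139, 0.289, 0.0841 and 1.51 in Bcat cOEs and 0.0941, 1.12, 0.0628 and 0.221 in APC/Bcat cKOs. Dynlrb2 was at 0.638, 0.976, 0.958 and 0.524 FPKM in controls, 3.35, 0.37, 7.78 and 2.22 in APC cKOs, 1.22, 0.848, 0.524 and 3.0 in Bcat cOEs and 0.366, 3.88, 0.978 and 1.38 in APC/Bcat cKOs. The same 4 libraries named for Foxj1 were the highest for both genes, from 1.12 to 2.60 FPKM for Dnali1 and from 3.0 to 7.78 FPKM for Dynlrb2. APC cKO replicate 2 was the lowest library of all for Dnali1, so that APC cKOs spanned the whole range. The heavy chains, which carry the motor, were low, and Dnah1 was the one that was tested. It was 0.571-0.657 FPKM in controls and 0.686-0.821 in APC cKOs, groups that did not overlap, with a log2 change of 0.28 (standard error 0.15, adjusted p = 0.552).

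Genes that dock, space or assemble dynein arms differed among themselves. Ccdc114 was at 0.318, 0.546, 0.482 and 0.436 FPKM in controls, 0.888, 0.522, 0.93 and 0.519 in APC cKOs, 0.828, 0.612, 0.703 and 0.649 in Bcat cOEs and 0.344, 0.801, 0.433 and 0.423 in APC/Bcat cKOs. Ccdc114, of the docking complex, was above all controls in all 4 Bcat cOEs and in 2 of 4 APC cKOs. Its log2 change was 0.55 in APC cKOs (adjusted p = 0.484, standard error 0.25) and 0.56 in Bcat cOEs (0.25, adjusted p = 0.946). Lrrc6 was at 5.82, 8.17, 7.0 and 6.19 FPKM in controls, 4.41, 6.56, 5.13 and 5.39 in APC cKOs, 6.49, 7.48, 6.43 and 7.99 in Bcat cOEs and 6.88, 5.77, 6.3 and 5.12 in APC/Bcat cKOs. Lrrc6, needed to assemble dynein arms in the cytoplasm, was lower than all controls in 3 of 4 APC cKOs, with a log2 change of -0.34 (standard error 0.13, adjusted p = 0.419). Ccdc39, of the ruler that spaces the arms, stayed between 4.08 and 6.07 FPKM, while its partner Ccdc40 went from 0.0924 to 0.673 FPKM.

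Radial spokes and nexin links regulate the arms. Rsph1 was at 3.38, 3.89, 3.39 and 2.59 FPKM in controls, 7.69, 3.4, 8.15 and 4.72 in APC cKOs, 4.62, 2.59, 3.98 and 6.55 in Bcat cOEs and 3.99, 5.07, 3.69 and 3.99 in APC/Bcat cKOs. The spoke head gene Rsph1 exceeded all controls in 3 of 4 APC cKOs, with a log2 change of 0.76 (standard error 0.27, limma adjusted p = 0.371). It also exceeded all controls in 3 of 4 Bcat cOEs and in 3 of 4 APC/Bcat cKOs. The log2 changes there were 0.35 (0.27, adjusted p = 0.950) and 0.33 (0.27, adjusted p = 0.587). Rsph9 was at 9.0, 14.8, 16.5 and 14.4 FPKM in controls, 12.2, 12.2, 20.5 and 11.5 in APC cKOs, 18.7, 14.5, 13.1 and 16.4 in Bcat cOEs and 13.1, 17.1, 13.9 and 18.6 in APC/Bcat cKOs. Rsph9, from the same spoke head, was highest in APC cKO replicate 3 too, but the other 3 APC cKOs lay inside the control range, and its log2 change was 0.04 (standard error 0.20, adjusted p = 0.968).

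Lrrc23 and Ccdc135 (Drc7, of the nexin link) are also among the genes that the study picked on these same libraries, so their direction here is not independent evidence. Lrrc23 was at 0.109, 0.662, 0.593 and 0.326 FPKM in controls, 2.11, 0.576, 2.74 and 0.972 in APC cKOs, 1.56, 0.888, 0.376 and 2.41 in Bcat cOEs and 0.316, 1.77, 0.421 and 0.471 in APC/Bcat cKOs. In total 3 APC cKOs and 3 Bcat cOEs were above every control, and 1 library of each was not. The log2 change was 1.65 in APC cKOs (0.60 standard error, adjusted p = 0.383), 1.34 in Bcat cOEs (0.60, adjusted p = 0.946) and 0.57 in APC/Bcat cKOs (0.60, adjusted p = 0.684), the last falling to 0.10 without APC/Bcat cKO replicate 2 and to 0.19 without control replicate 1. Ccdc135 was at 0.324, 0.196, 0.202 and 0.0601 FPKM in controls, 0.709, 0.106, 1.22 and 0.611 in APC cKOs, 0.229, 0.231, 0.156 and 1.08 in Bcat cOEs and 0.236, 0.446, 0.135 and 0.0678 in APC/Bcat cKOs. With a mean of 0.375 FPKM Ccdc135 was below the minimum of the test, and 4 libraries, 3 of them APC cKOs, were above 0.6 FPKM.

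The proteins inside the doublet microtubules stiffen the axoneme. Enkur was at 1.56, 2.16, 1.66 and 2.62 FPKM in controls, 3.58, 1.98, 5.91 and 2.57 in APC cKOs, 1.99, 2.49, 1.66 and 4.69 in Bcat cOEs and 2.28, 4.62, 2.48 and 2.46 in APC/Bcat cKOs. Enkur was above all controls in APC cKO replicates 1 and 3, Bcat cOE replicate 4 and APC/Bcat cKO replicate 2, and its log2 change was 0.69 in APC cKOs (adjusted p = 0.517, standard error 0.34) and 0.51 in APC/Bcat cKOs (0.34, adjusted p = 0.496), or 0.28 in the latter without replicate 2. The tektins Tekt1 and Tekt2 were highest in APC cKO replicates 1 and 3. Tekt1 reached 2.38 and 2.92 FPKM there and Tekt2 1.47 and 1.78 FPKM.

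Among the remaining genes, 1700012B09Rik, likewise picked by the study, had values from 0 to 3.05 FPKM. 1700012B09Rik was at 0.116, 0.312, 0.612 and 0.0669 FPKM in controls, 3.04, 0.355, 2.53 and 0.494 in APC cKOs, 3.05, 0.474, 0 and 1.85 in Bcat cOEs and 0, 2.18, 0.187 and 0 in APC/Bcat cKOs. It was listed at 0 in Bcat cOE replicate 3 and in APC/Bcat cKO replicates 1 and 4. The log2 change was 1.93 in APC cKOs (standard error 1.10, adjusted p = 0.574), 1.26 in Bcat cOEs (1.10, adjusted p = 0.950) and -0.17 in APC/Bcat cKOs (1.10, adjusted p = 0.964), where the sign turned with a pseudocount of 1 and without control replicate 3 or APC/Bcat cKO replicate 1 or 4 (from -1.17 to 0.33 with each library left out). The change in Bcat cOEs was 0.59 without replicate 1 and 2.25 without replicate 3. Tmem212, a gene expressed in ciliated cells, and the adenylate kinase gene Ak7, named here after their values were seen, went from 0 to 6.51 and from 0 to 3.45 FPKM, both highest in APC cKO replicate 3.

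**Figure D3:**
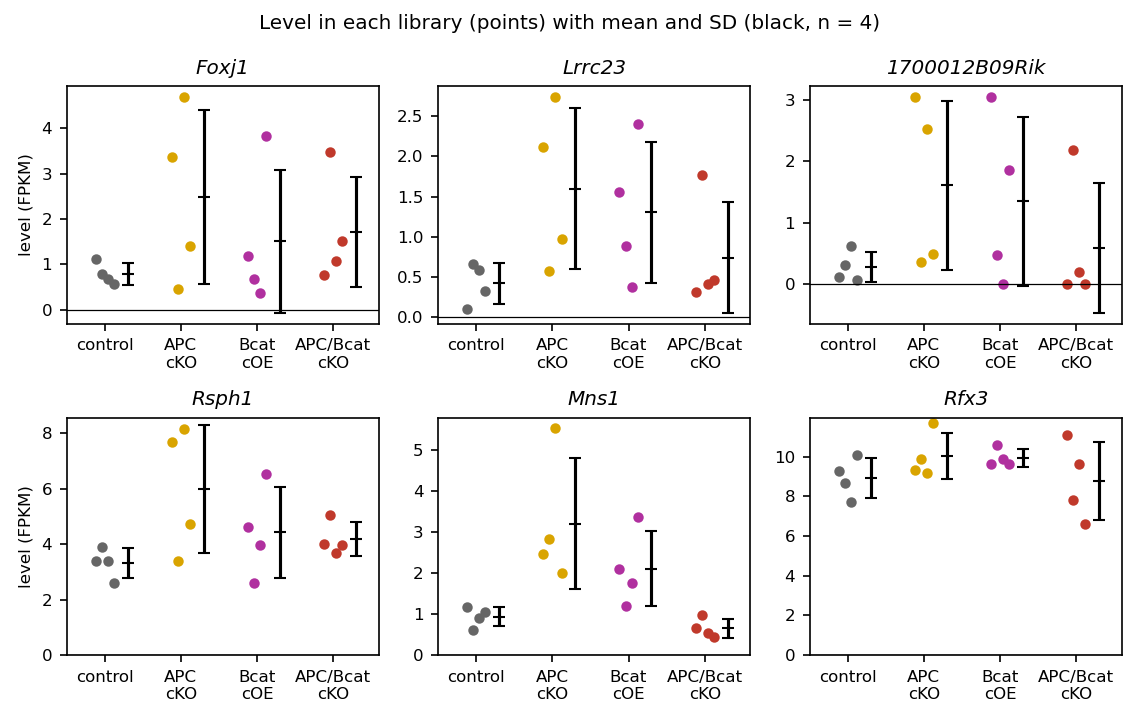
Points are the 4 libraries of each genotype in replicate order, and black bars the mean and SD, in FPKM on a linear axis with a line at 0. For Foxj1, Lrrc23 and 1700012B09Rik each mutant genotype mixes libraries at control level with others above it. For Rsph1 each mutant genotype has 3 of 4 libraries above all controls, the APC/Bcat cKOs at 3.69 to 5.07 against 2.59 to 3.89 FPKM. For Rfx3 the groups overlap, and for Mns1 all 8 libraries of APC cKO and Bcat cOE lie above all 8 of the other groups.

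Mns1, a lumen protein of motile cilia and sperm tails that is also made in meiotic cells, was the exception in how its libraries split by genotype. It still varied with the other genes. Its correlation with the mean of the other tested genes was 0.62, and 0.60 after genotype means were subtracted. Its highest library was again APC cKO replicate 3. Mns1 was at 1.17, 0.614, 0.904 and 1.05 FPKM in controls, 2.45, 2.81, 5.52 and 1.99 in APC cKOs, 2.1, 1.2, 1.76 and 3.36 in Bcat cOEs and 0.65, 0.982, 0.535 and 0.446 in APC/Bcat cKOs. All 8 libraries of the lines with raised β-catenin, from 1.20 to 5.52 FPKM, were above all 8 of the other groups, from 0.446 to 1.17 FPKM, though the 2 values at the border were close. That held for 1 of 25 listed genes and for 0.0286% of all genes tested. Mns1 was picked by the study on these libraries, which is not independent evidence.

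With the 8 raised libraries set against the 8 others, Mns1 was higher by 1.55 on the log2 scale (standard error 0.23, limma adjusted p = 0.0120). It was the 1 listed gene of 25 called in that comparison, in which 0.0572% of all genes were called. At an unadjusted p under 0.05 there were 5 listed genes (1700012B09Rik, Ccdc114, Dnah1, Lrrc23 and Mns1, all higher) and 8.84% of all genes. Between APC cKOs and APC/Bcat cKOs the difference was 2.07 (standard error 0.33, adjusted p = 0.0138), again the 1 call among 25, where 0.215% of all genes were called, and Dnah1 joined it at an unadjusted p under 0.05 (2 of 25, against 10.3% of all genes). In a test of any difference among the 4 genotypes it was called with an adjusted p of 0.0260 (0.117, and no longer called, with the title number as a replicate block, and also lost when control replicate 3, Bcat cOE replicate 1 or APC/Bcat cKO replicate 1, 3 or 4 was left out), as 1 of 25 against 0.25% of all genes, with Lrrc6 beside it at an unadjusted p under 0.05 (2 of 25, against 12% of all genes). Between Bcat cOEs and APC/Bcat cKOs the difference was 1.51 (standard error 0.33, adjusted p = 0.0867), with 0 of 25 listed genes called and 0.229% of all genes, and Mns1 was 1 of 25 at an unadjusted p under 0.05 (11.9% of all genes).

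Against controls Mns1 did not pass. Its log2 change was 1.60 in APC cKOs (standard error 0.33, adjusted p = 0.163), 1.03 in Bcat cOEs (0.33, adjusted p = 0.946) and -0.47 in APC/Bcat cKOs (0.33, adjusted p = 0.518). Over 27 alternatives the adjusted p in APC cKOs against controls was between 0.0612 and 0.636. Over the same number it was between 0.0106 and 0.0869 for APC cKOs against APC/Bcat cKOs, where the call was lost without APC/Bcat cKO replicate 3 (adjusted p = 0.0518) or 4 (0.0728) and with the other groups left out of the fit (0.0869). For the 8 raised libraries against the others it was between 0.00830 and 0.0826. The highest value came from the fit in which the 4 genotypes were merged into 2 groups.

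In GENCODE M21 (mm10) Mns1 lies at chr9:72438011-72462025 on the plus strand, and its exons overlap those of Tex9 on the other strand. The library kit keeps strand, but the sources do not say whether the counting used it. Tex9 was at 2.01-2.52 FPKM in controls, 2.39-3.58 in APC cKOs, 2.20-3.24 in Bcat cOEs and 2.07-2.68 in APC/Bcat cKOs. Its log2 difference for the raised libraries against the others was 0.34 (standard error 0.10, adjusted p = 0.341), smaller than that of Mns1. The part of shared reads in either value was not tested. Exons of Dnaic1, Dnali1, Ccdc39, Iqcg, Spag17 and Dnah11 likewise overlap other genes of the table on the opposite strand.

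As a group, most of the listed genes had changes above 0 without passing the test. Over all 41 genes, fitted with no minimum level, 40 had a log2 change above 0 in APC cKOs (50% of all genes did), 36 in Bcat cOEs (49.3%) and 30 in APC/Bcat cKOs (49.6%), and the medians were 0.51, 0.33 and 0.12. None was called (0.0257%, 0.0103% and 0.113% of all genes), and 10, 3 and 0 had an unadjusted p under 0.05 (9.39%, 5.17% and 11.7% of all genes). Among the genes that reached the minimum, in APC cKOs 24 of 25 had a log2 change above 0 (48.6% of all genes did), with a median of 0.76 against -0.0042 over all genes tested. Without Ak7, Dnali1 and Dnaic2, which reached it through APC cKOs alone, it was 21 of 22 with a median of 0.62. In Bcat cOEs it was 22 of 25 (48.5% of all genes) with a median of 0.35, and in APC/Bcat cKOs 19 of 25 (50.8% of all genes) with a median of 0.13. The genes varied together, so these are not independent measurements. Without APC cKO replicate 3 the median of the 25 in APC cKOs was 0.50, without Bcat cOE replicate 4 that in Bcat cOEs was 0.10, and without APC/Bcat cKO replicate 2 that in APC/Bcat cKOs was -0.01.

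At an adjusted p under 0.05, 0 of 25 listed genes were called against controls in APC cKOs (0.0429% of all genes), 0 in Bcat cOEs (0.0143%) and 0 in APC/Bcat cKOs (0.207%) by limma. At an unadjusted p under 0.05 the counts were 7 (10% of all genes), 3 (5.07%) and 0 (14.2%). The 7 in APC cKOs were Ccdc114, Lrrc23, Mns1, Rsph1, Rsph4a and Spag6, which were higher, and Lrrc6, which was lower. This count was 2 without APC cKO replicate 3, 4 without APC cKO replicate 1 or control replicate 1, and 16 without APC cKO replicate 2. The 3 in Bcat cOEs were Ccdc114, Lrrc23 and Mns1. All 4 libraries exceeded all 4 controls for 2 of 25 genes in APC cKOs (Dnah1 and Mns1; 2.49% of all genes), for 2 in Bcat cOEs (Ccdc114 and Mns1; 1.46%) and for 0 in APC/Bcat cKOs (2.98%). The 3 comparisons share the control libraries.

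**Figure D4:**
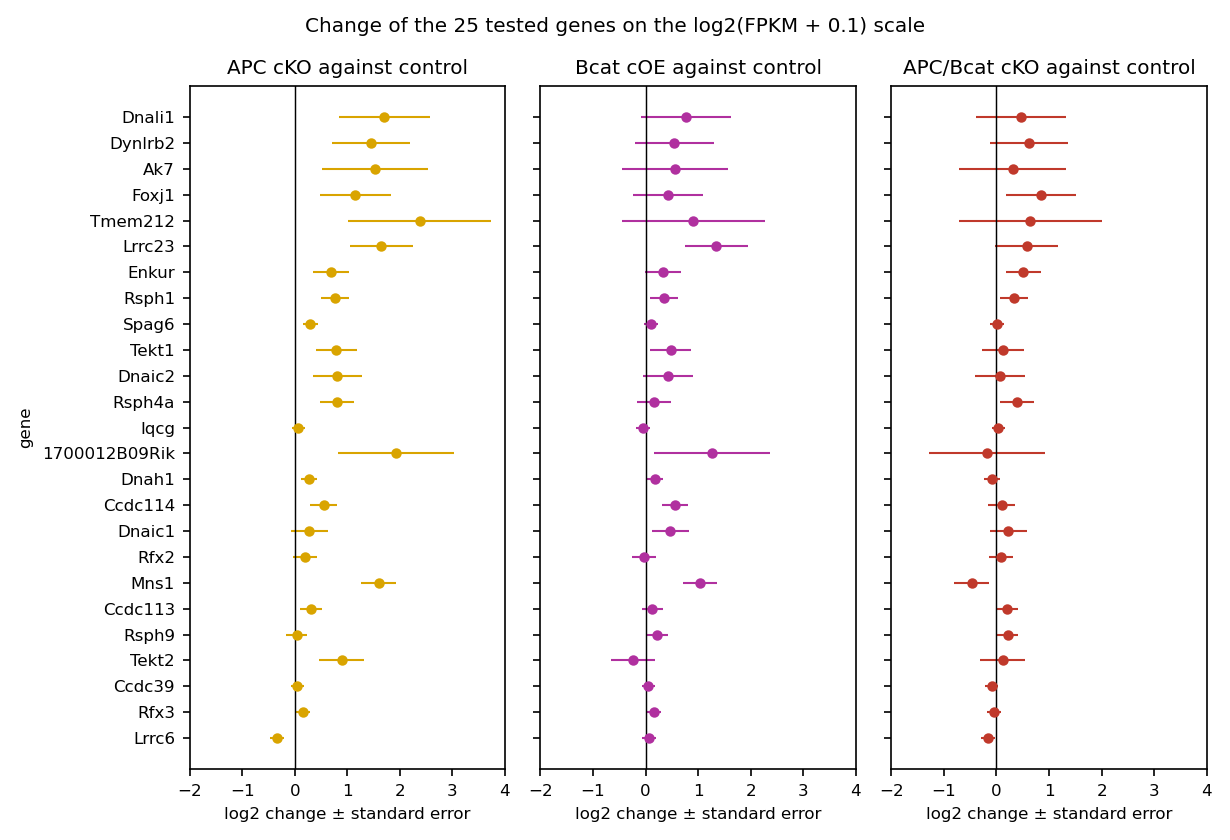
Log2 change of each tested gene against controls, on the log2(FPKM + 0.1) scale with its standard error, in APC cKOs, Bcat cOEs and APC/Bcat cKOs. Most points lie right of 0 in APC cKOs (24 of 25), with standard errors above 1 for Tmem212, 1700012B09Rik and Ak7, and Mns1 lies right of 0 in the first 2 panels and left of it in the third.

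Between APC cKOs and Bcat cOEs 0 of 25 listed genes were called (0.0429% of all genes), and 2 had an unadjusted p under 0.05 (7.57% of all genes), Tekt2 and Lrrc6. In the fit with no minimum, 0 of the 16 genes below it were called against controls in any line. An unadjusted p under 0.05 was reached by 3 of 16 in APC cKOs (9.39% of all genes in that fit). It was reached by 0 in Bcat cOEs (5.17%) and 0 in APC/Bcat cKOs (11.7%). The median log2 change of the 16 in APC cKOs was 0.42, and the smallest unadjusted limma p-value there was that of Ccdc40 (0.0313).

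Other genes of the motile cilium were read beside these. Of 72 further genes on a list of motile cilia genes, 70 were in the table and 39 were tested, and 21 of the 39 had a correlation above 0.5 with the mean of the 25 genes, against 8.28% of all genes tested. Whether some of the 39 reached the minimum only through a few high libraries was not checked. Against controls 0 of 39 were called in each line. An unadjusted p under 0.05 was reached by 7, 3 and 1 in APC cKOs, Bcat cOEs and APC/Bcat cKOs (10%, 5.07% and 14.2% of all genes). The median log2 change was 0.37, 0.12 and 0.14. The most abundant, Nme7 (mean 45.7 FPKM) and Tppp3 (27.8 FPKM), have roles beyond motile cilia. Rsph3a, a spoke gene, had the smallest p-value and went the other way, with a log2 change of -0.59 in APC cKOs (standard error 0.15, adjusted p = 0.299).

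One gene of this list was called. Cfap74 was at 8.6, 9.85, 4.92 and 10.1 FPKM in controls, 6.93, 9.28, 8.12 and 9.71 in APC cKOs, 4.66, 4.9, 5.64 and 5.47 in Bcat cOEs and 9.31, 9.17, 9.51 and 11.2 in APC/Bcat cKOs. Cfap74, a cilia- and flagella-associated protein gene, was lower in Bcat cOEs than in APC/Bcat cKOs by 0.91 on the log2 scale (standard error 0.18, adjusted p = 0.0499), the groups did not overlap, and it was 1 of 39 where 0.229% of all genes were called. Control replicate 3 was as low as the Bcat cOEs.

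Regulators of multiciliation and centriole amplification were also read. Of 12 listed, 6 were tested, and 0 of 6 were called against controls in any line. Ccno, a cyclin-like gene needed to amplify centrioles, was at 0.159-0.492 FPKM in controls and 0.672-0.993 in APC/Bcat cKOs, with a log2 change of 1.12 (standard error 0.29, adjusted p = 0.162). Plk4, the kinase that starts centriole copying, had the next smallest p-value, with a change of -0.33 in Bcat cOEs (standard error 0.09, adjusted p = 0.946). E2f4 (13.3 FPKM) and E2f5 (7.05 FPKM) were the most abundant.

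Genes of the primary cilium and of intraflagellar transport differed little between genotypes. All 29 listed were tested, 0 of 29 were called against controls in any line, and the median log2 change was 0.02 in APC cKOs, -0.02 in Bcat cOEs and 0.04 in APC/Bcat cKOs. Their summed level was 523-599 FPKM over the 16 libraries, led by Kifap3 (117 FPKM) and Ift20 (72.3 FPKM). The smallest p-values belonged to Ttc8 and Ift52 in APC/Bcat cKOs, with changes of -0.21 and -0.16 (adjusted p = 0.281 and 0.303). Of the 29, 6 had a correlation above 0.5 with the mean of the motile cilia genes (20.7%, against 8.28% of all genes). None had one above 0.8 (0.715% of all genes did).

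The genes outside the list that followed it most closely included further cilia genes. Over the 16 libraries the highest Pearson correlations with the mean of the 25 genes included those of 1700094D03Rik (0.96), Thbs4 (0.92), 1700026D08Rik (0.92), Ppp1r36 (0.92), 1700009P17Rik (0.92), Igsf1 (0.91), Fam179a (0.91), Hap1 (0.90) and 4932443I19Rik (0.90). Of these, 2 stand on the list of other motile cilia genes, 1700026D08Rik (Cfap161) and 1700009P17Rik (Cfap126). After genotype means were subtracted the first 4 were Trp53 (0.96), 1700094D03Rik (0.95), Cdhr3 (0.94) and Fam183b (0.94). Fam183b stands on that list too.

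The ventricle wall, the subventricular zone and the striatum lie beneath the frontal cortex, and markers of their cells were read in the same libraries. Fewer cells of a type in the tissue and less RNA per cell cannot be told apart in bulk samples. Of 15 neuroblast and dividing cell genes 14 were tested, and 12 of the 14 had a correlation above 0.5 with the mean of the motile cilia genes (8.28% of all genes did). In 3 of the 14 it was above 0.8 (0.715% of all genes), the highest being that of Sox11 (0.88). The median correlation was 0.74, against 0.56 for the list of other motile cilia genes. Whether some of the 14 neuroblast and dividing cell genes reached the minimum only through a few high libraries was not checked. Their FPKM summed to 28.5-56.5 in controls, 32.8-113 in APC cKOs, 32.9-82.6 in Bcat cOEs and 27.2-72.7 in APC/Bcat cKOs, and no gene of the list was at 0 in all libraries. A log2 change above 0 was found for 14 of 14 in APC cKOs (48.6% of all genes), 14 in Bcat cOEs (48.5%) and 9 in APC/Bcat cKOs (50.8%), with medians of 0.65, 0.36 and 0.07. Of the 14, 0 were called against controls in any line, and 6, 1 and 0 had an unadjusted p under 0.05 (10%, 5.07% and 14.2% of all genes).

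Though they varied together, the 2 lists peaked in different libraries. The summed level of the neuroblast genes was highest in APC cKO replicate 1 (113 FPKM) and that of the cilia genes in APC cKO replicate 3 (125 FPKM). Dcx was at 3.25, 4.06, 6.46 and 6.8 FPKM in controls, 14.6, 4.61, 5.37 and 7.36 in APC cKOs, 9.76, 5.7, 4.83 and 6.07 in Bcat cOEs and 4.14, 7.55, 4.71 and 3.27 in APC/Bcat cKOs. Dcx, the microtubule protein of migrating neuroblasts, was highest in APC cKO replicate 1 and Bcat cOE replicate 1, whereas Foxj1 was highest in APC cKO replicate 3. Dlx1, a factor of interneuron precursors, was highest in the same 2 libraries (30.2 and 24.7 FPKM). Pbk and Top2a, of dividing cells, had the smallest p-values, with log2 changes in APC cKOs of 1.94 (0.43 standard error, adjusted p = 0.204) and 1.28 (0.31, adjusted p = 0.261). Dcx, Pbk and Top2a were also picked by the study on these libraries. The part of neuroblasts or of the subventricular zone in the cilia gene levels was not tested.

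Markers of striatal projection neurons summed to 142-551 FPKM in controls, 173-752 in APC cKOs, 148-403 in Bcat cOEs and 167-546 in APC/Bcat cKOs. All 10 were tested and 0 were called. A correlation above 0.5 with the cilia genes was found for 2 of 10 (20%, against 8.28% of all genes). In APC cKOs 10 of 10 had a log2 change above 0 (48.6% of all genes), with a median of 0.63. In Bcat cOEs it was 7 (48.5%) and in APC/Bcat cKOs 9 (50.8%), with medians of 0.08 and 0.17. APC cKO replicate 3 was the highest library for the summed level, with Ppp1r1b at 222 FPKM and Penk at 229 FPKM, but control replicate 1, where the cilia genes were low, had the next highest (551 FPKM), with Ppp1r1b at 172 FPKM and Penk at 145 FPKM. APC cKO replicate 1, where the cilia genes were high, had 173 FPKM. The smallest p-values were those of Penk and Syndig1l in APC cKOs, with log2 changes of 0.66 and 0.67 (adjusted p = 0.659 and 0.664).

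Choroid plexus, the other ciliated tissue of the ventricle, was low by its defining markers. Ttr, its most abundant transcript, was between 0.346 and 5.89 FPKM in the 16 libraries, Slc4a5 did not exceed 0.0290 FPKM and Lmx1a did not exceed 0.0263 FPKM, and both were at 0 in several libraries. Sostdc1 (0.0795 to 1.66 FPKM) and Otx2 (0.0369 to 1.11 FPKM) were highest in APC cKO replicate 3, where most of the cilia genes were also highest. The list of 18 summed to 90.8-111 FPKM in controls, 87.6-94.8 in APC cKOs, 91.1-97.6 in Bcat cOEs and 90.7-103 in APC/Bcat cKOs, nearly all of it Enpp2 (mean 85.3 FPKM), which oligodendrocytes also make. Of 7 genes tested 0 were called, Kl and Enpp2 having the smallest p-values in APC cKOs (log2 changes of 0.51 and -0.18, limma adjusted p = 0.450 and 0.461). Clic6 alone had a correlation above 0.5 with the cilia genes (0.64), or 14.3% of the list against 8.28% of all genes.

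**Figure D5:**
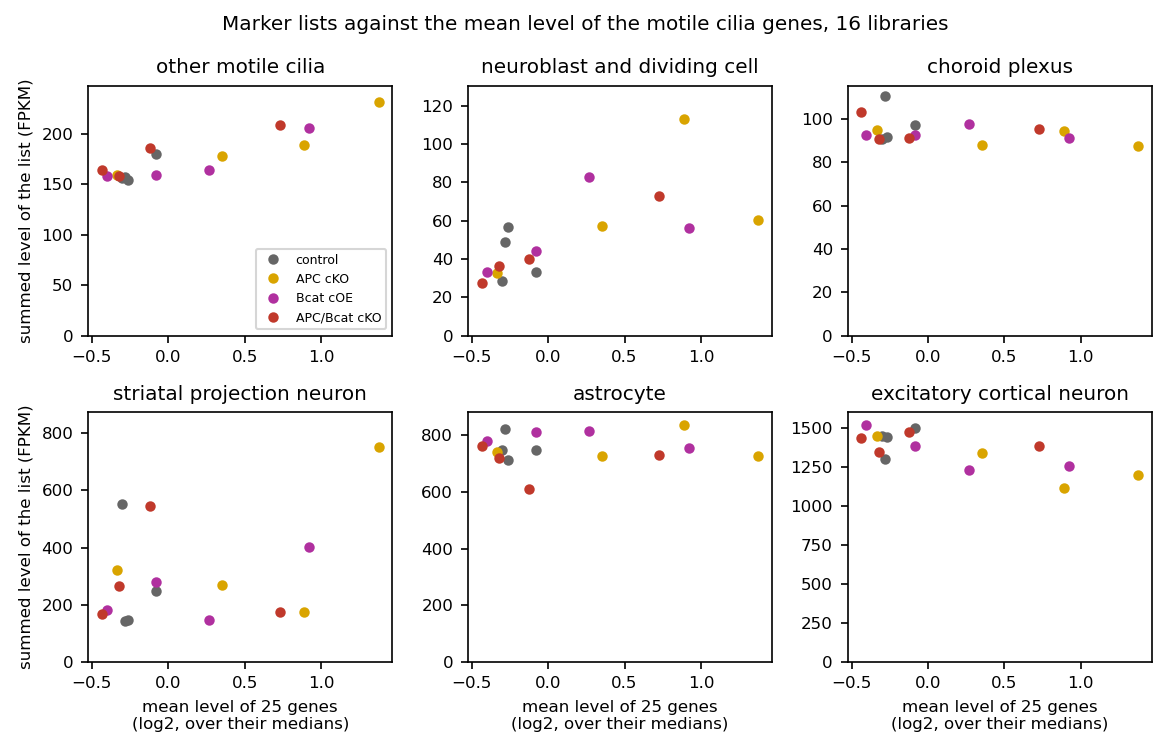
Each point is a library, coloured by genotype. The horizontal axis is the mean level of the 25 motile cilia genes (log2 above their medians) and the vertical axis the summed FPKM of a marker list. Other motile cilia genes are highest in the library at the far right, neuroblast genes peak in another library (113 FPKM), striatal genes are high at both ends, and the choroid plexus sum, nearly all of it Enpp2, is between 87.6 and 111 FPKM throughout.

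Of the other cell types, excitatory cortical neuron genes went opposite to the cilia genes. The 8 genes, all tested, had a median correlation of -0.63 with the mean of the 25 cilia genes, and the highest, that of Rorb, was -0.35. They summed to 1303-1502 FPKM in controls, 1119-1451 in APC cKOs, 1234-1524 in Bcat cOEs and 1346-1476 in APC/Bcat cKOs, with 0 called against controls. Nrgn (743 FPKM) and Slc17a7 (475 FPKM) were the most abundant, and Neurod6 had the smallest p-value, with a log2 change of -0.45 in Bcat cOEs (standard error 0.15, adjusted p = 0.946), followed by Nrgn with -0.26 in APC cKOs (adjusted p = 0.350).

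Of the astrocyte genes 8 of 8 were tested and 0 called. A correlation above 0.5 was found for 5 of these genes (62.5%, against 8.28% of all genes), the highest that of Gja1 (0.84). Their sums of 713-823, 728-837, 757-818 and 610-762 FPKM in controls, APC cKOs, Bcat cOEs and APC/Bcat cKOs overlapped, with Slc1a2 (281 FPKM) and Slc1a3 (182 FPKM) the most abundant. Gfap, which ependymal and reactive astroglial cells make too, was at 45.9-48.6 FPKM in controls and 61.4-132 in APC cKOs, with a log2 change of 0.73 (standard error 0.23, adjusted p = 0.328), and S100b had a change of -0.22 (adjusted p = 0.310).

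Meningeal, microglial and oligodendrocyte lists held no gene with a correlation above 0.5 (8.28% of all genes had one). They held no gene called against controls (0 of 7, 0 of 5 and 0 of 5 tested). Meningeal genes summed to 30.5-53.9, 42.5-58.0, 38.8-53.3 and 30.1-47.4 FPKM in the same order of genotypes, led by Igf2 and Dcn, with Slc6a13 and Col1a1 of smallest p (log2 changes of 0.69 and 0.58 in APC cKOs, adjusted p = 0.310 and 0.350). Microglial genes summed to 97.0-105, 89.9-104, 97.7-112 and 103-112 FPKM, led by C1qa and P2ry12, and Csf1r and Cx3cr1 had changes of 0.21 and 0.18 in APC/Bcat cKOs (adjusted p = 0.283 and 0.290). The 5 oligodendrocyte genes were all below 0 in APC cKOs, 4 with an unadjusted p under 0.05 (10% of all genes). All 5 were above 0 in APC/Bcat cKOs, 2 with such a p (14.2% of all genes). Between these lines all 5 were lower in APC cKOs with an unadjusted p under 0.05 (10.3% of all genes) and 0 were called, the smallest p being that of Mag (log2 difference -0.53, standard error 0.10, adjusted p = 0.0560). Mbp, the myelin basic protein gene, was at 281-401 FPKM in controls, 223-289 in APC cKOs, 264-354 in Bcat cOEs and 356-427 in APC/Bcat cKOs, so that APC cKOs and APC/Bcat cKOs did not overlap. Against controls, Mbp and Mobp had log2 changes of -0.37 and -0.34 in APC cKOs (adjusted p = 0.320 and 0.367, standard error 0.12 for each). The part of any of these cell types in the cilia gene levels was not tested.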

How the data were processed

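Reads were mapped to mm10 with TopHat2 (2.0.10) by the authors, who made expression values with Cufflinks and Cuffdiff (2.1.1), as the methods and the submitters' processing notes state. Strand use in counting is not given in the sources used here. The deposited values are on a log scale, read here as log2(FPKM + 1): base and offset were inferred, since FPKM times length in kilobases then sums to 670210-709292 per library, against 5975349-6634343 for natural logs. They were turned back into FPKM. The design had assumed FPKM, and its test was kept. limma 3.58.1 (R 4.3.3; lmFit, contrasts.fit, eBayes with trend) was run on log2(FPKM + 0.1), over all 16 libraries and the 13978 genes that averaged 0.5 FPKM or more, with Benjamini-Hochberg adjustment over those genes. A fold change on this scale understates the change of low genes. Values hold no fragment counts, so depth is unknown and no counting interval can be given. The test was checked on simulated data of the APC cKO against control comparison: 97% of changes of 2 and 84% of changes of 1 on the log2 scale were called, and 7 of 13778 unchanged genes. These rates are for genes of typical spread (median SD 0.15), and the listed genes spread more (0.51).

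The genes, the other lists and the comparisons were chosen with earlier results of these data known. The named genes are Foxj1, Rfx2 and Rfx3, the 4 that the study printed, the 3 of highest mean, the 3 of smallest p in each comparison with control and every gene called; of each other list, the genes called, the 2 of highest mean and the 2 of smallest p. The 10 genes most alike were taken by Pearson correlation. Some items that these rules name are not reported here. Titles number the libraries of each genotype, without saying what a number marks. Same-numbered libraries of APC cKO and Bcat cOE deviated together (r = 0.111 to 0.322 in 3 pairs) while in no other combination of genotypes were all such r above 0.1, and in a fit with the number as a block the calls between those 2 went from 6 to 1 over all genes, with 0 listed genes in both. Alternatives were another pseudocount, filter, scaling, no trend, fewer groups, sex, a block and each library left out. Promoter windows are from RefSeq (GRCm38.p6). The plots were drawn with matplotlib 3.10.9.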

Additional observations from a re-analysis of the deposited data

Results flagged for a closer look

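The change of Mns1 against controls differed between APC cKOs and APC/Bcat cKOs by 2.07 on the log2 scale (limma adjusted p = 0.0138), with all 4 APC cKOs above all 4 APC/Bcat cKOs. The change of Cfap74 differed between Bcat cOEs and APC/Bcat cKOs by -0.91 (adjusted p = 0.0499), with all 4 Bcat cOEs below.

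Among 52 sets of 4 libraries tested for 1 library far from the other 3 (12 named genes and the mean level of the 25 genes, in 4 genotypes), 4 were found, where chance gives about 2.6. The gap to the nearest library, as a share of the whole range, was 0.832 for Ccdc135 in Bcat cOEs (replicate 4 high), 0.892 for Rsph9 in APC cKOs (replicate 3 high), 0.885 for Enkur in APC/Bcat cKOs (replicate 2 high) and 0.833 for the mean level in controls (replicate 2 high). The first 3 are the libraries in which the cilia genes were high together.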

How the results depend on the processing

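An unadjusted p under 0.05 in place of an adjusted one gave 7 genes for APC cKO (10% of all genes) and 3 for Bcat cOE (5.07%) against control. Against APC/Bcat cKO it gave 2 for APC cKO (10.3%) and 1 for Bcat cOE (11.9%). For APC cKO against Bcat cOE it gave 2 (7.57%). It gave 5 for the raised libraries against the others (8.84%) and 2 among the 4 genotypes (12%). With a minimum of 2 FPKM the 3 calls of Mns1 became 0, since its mean is below that. A fit of only the groups compared gave 0 for APC cKO against APC/Bcat cKO. For the raised libraries, a fit of all 16 libraries with the 4 genotypes merged into 2 groups gave 0, and it called 0 of 13978 genes. The title number as a replicate block gave 0 among the 4 genotypes. The block of title numbers or, chosen after seeing the data, of header numbers changed no other call of a listed gene. With each library left out the counts ranged from 0 to 1 for APC cKO against APC/Bcat cKO (0 without APC/Bcat cKO replicate 3 or 4) and from 0 to 1 among the 4 genotypes (0 without control replicate 3, Bcat cOE replicate 1, or APC/Bcat cKO replicate 1, 3 or 4), and stayed at 1 for the raised libraries. Of 543 values of single genes 534 kept direction and side of the threshold, 4 of Mns1 lost the call, and 5 turned: 1700012B09Rik in APC/Bcat cKO was at 0.15 with a pseudocount of 1, 0.21 without control replicate 3 and 0.33 without APC/Bcat cKO replicate 1 or 4 (from -1.17 to 0.33 with each library left out), and Foxj1 in Bcat cOE was at -0.16 without replicate 4 (from -0.16 to 0.86). The cause was not tested. Depth is unknown, and 16 of the 41 genes lay under the minimum of the test.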
